A study of Homo sapiens with 10 samples.

Results

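Ribosome biogenesis and MYC-linked growth genes were examined in U2OS cells, a human osteosarcoma line, given PD0332991 or the solvent DMSO. The group was a list of 33 genes whose products build ribosomes or feed growth, and a gene was measured where the array annotation gave a probe set with its symbol alone. By this rule 20 of the 33 genes were measured, out of 14232 genes on single-symbol probe sets and 21980 probe sets in all. Of the other 13, 9 lay on probe sets that carry several symbols and were not analysed here. Of these, 7 (NCL, NOP56, NOP58, DKC1, PPAN, TBRG4 and ODC1) shared the probe set with small nucleolar RNAs. The other 2 (MYBBP1A and PNO1) shared it with other genes only. The remaining 4 (GNL3, NHP2, WDR43 and BOP1) were not matched to a probe set.

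PD0332991 (palbociclib) inhibits CDK4 and CDK6, the kinases that cyclin D activates. The PD0332991 group had 5 arrays of U2OS cells treated for 4 h and the DMSO group 5 arrays of U2OS cells given vehicle for 4 h, each described as a biological replicate. All cells were seeded at 25% density and had grown for 30 h in medium with 10% serum. The labelled dose is 1 mM, a doubtful unit for a compound commonly used at micromolar doses, and it could not be checked here. All values come from 1 cell line, and the number of arrays limits their precision. Expression was read from exon arrays as log2 values, 1 per gene-level probe set, with array medians between 6.95 and 7.06. The array names divide the arrays into set 1 (replicates 1 to 3 of both treatments) and set 2 (replicates 4 and 5 of both). As a check of the treatment, the E-type cyclin gene CCNE2 and the transcription factor gene E2F2 were lower by -1.89 ± 0.20 and -1.01 ± 0.08 on the log2 scale (± SE, 5 arrays each, adjusted p = 0.00911 and 0.00289 by limma). Of 11 osteoblast and mesenchymal markers, 5 (COL1A1, VIM, SPARC, THY1 and TNC) lay above the upper quartile of every array, 1 (IBSP) lay below the lower quartile of every array, and 5 (RUNX2, COL1A2, COL5A1, ALPL and SP7) did neither. Of 8 epithelial markers, 2 (KRT8 and KRT18) lay above the upper quartile and 2 (ESRP1 and GRHL2) below the lower quartile of every array, and 4 (EPCAM, CDH1, KRT19 and CLDN4) did neither. Of 5 blood cell markers, PTPRC lay below the lower quartile of every array and the other 4 (CD3E, CD14, HBB and SPI1) did neither.

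Ribosomes are assembled in the nucleolus, where RNA polymerase I transcribes the long ribosomal RNA precursor. Small nucleolar ribonucleoproteins (snoRNPs) modify and help to cleave that precursor, and a large cast of assembly factors folds it with ribosomal proteins into the small and the large subunit. RNA polymerase III supplies the smallest ribosomal RNA and the transfer RNAs. The transcription factor MYC binds E-boxes near the start sites of many of these genes and of enzymes for polyamines and nucleotides, which links ribosome supply to growth, and the cyclin D-dependent kinases act at the step where growth signals admit a cell to the cycle.

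The canonical E-box CACGTG, which reads the same on both strands, is printed here for the measured genes that carry it. It was chosen because MYC binds E-boxes near the start sites of many such genes. RefSeq windows of 300 bases (250 before and 50 after a start site, GRCh38.p14) were at hand for 27 of the 33 genes, and 12 of the 27 (44.4%) held it in at least 1 window. By window it was found in 12 of the 33 windows of these genes (36.4%), against 7.26% of all 35116 windows. Among 11386 genes of the array with a window, 11.3% held it. Capitals mark the motif, and each sequence reads in the direction of the gene.
SRM, minus strand, chr1:11060200-11060229: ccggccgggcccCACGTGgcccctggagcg
RRP9, minus strand, chr3:51941892-51941921: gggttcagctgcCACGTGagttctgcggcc
GAR1, plus strand, chr4:109815781-109815810: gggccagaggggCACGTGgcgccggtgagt
NOP2, minus strand, chr12:6568242-6568268: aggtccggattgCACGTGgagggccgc
UTP20, plus strand, chr12:101280083-101280112: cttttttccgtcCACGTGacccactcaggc
FBL, minus strand, chr19:39846356-39846385: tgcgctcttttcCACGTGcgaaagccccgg
PES1, minus strand, chr22:30591880-30591909: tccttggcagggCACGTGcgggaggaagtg
In 6 of these 7 genes the motif lay close to the start, with its centre 2 bases upstream in RRP9, 7 upstream in UTP20, 9 downstream in FBL, 16 downstream in PES1, 34 downstream in GAR1 and 38 downstream in NOP2. In SRM its centre lay 196 bases upstream. A match describes the letters of the window and not a bound site.

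After 4 h of PD0332991 none of the 20 measured genes passed the test for a change. limma, with array set as a covariate and Benjamini-Hochberg adjustment over all 21980 probe sets, called 0 of 20 (smallest adjusted p = 1.00), and 0 of 20 had an unadjusted p under 0.05. Of all probe sets 0.05% were called, 9 lower and 2 higher, and 4.17% had an unadjusted p under 0.05. Log2 fold changes of the 20 genes ran from -0.13 in SRM to 0.30 in GAR1. A p that misses the threshold does not show equal levels, so the 95% confidence intervals are given beside each gene. For 17 of 20 genes (85%) the interval lay wholly within 1.5-fold of no change, as it did for 74.4% of all probe sets. The exceptions were NPM1, GAR1 and POLR1B. In 0 of 20 genes were the treatments apart, with no overlap inside either array set, against 2.26% of all probe sets. These are bulk RNA values, in which fewer cells expressing a gene and less of its RNA per cell cannot be told apart.

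**Figure D1:**
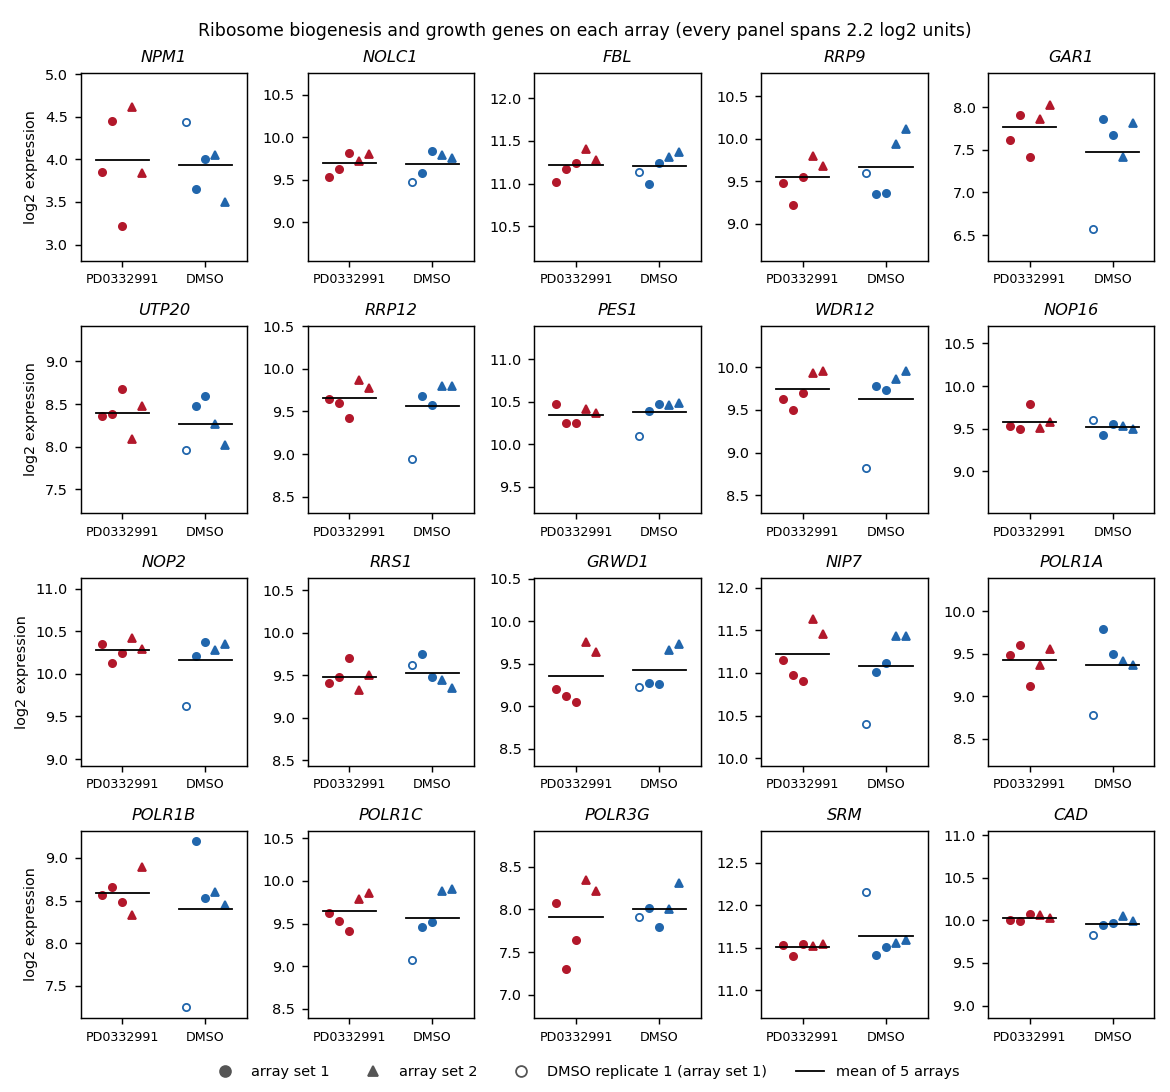
Log2 expression of the 20 measured genes on each of the 10 arrays, PD0332991 in red and DMSO in blue, with circles for array set 1, triangles for array set 2, an open circle for DMSO replicate 1 and a line at the mean of 5 arrays. The treatments overlap in every panel, and the open circle is the lowest of all 10 arrays in 12 of the 20 genes.

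Of the nucleolar scaffold and chaperone genes, NOLC1 and NPM1 were measured. NOLC1 encodes a phosphoprotein that chaperones snoRNPs, and it averaged 9.70 ± 0.12 with PD0332991 and 9.69 ± 0.16 with DMSO (log2, SD, n = 5 each), a 1.01-fold difference with a 95% confidence interval of 0.864 to 1.18. NPM1, a histone and ribosome chaperone, averaged 3.99 ± 0.56 with PD0332991 and 3.93 ± 0.37 with DMSO. Its probe set lay below the lower quartile on all 10 arrays (quartiles of 5.05 to 5.44), so the probe set reads as dim. Whether this probe set reports the level of NPM1 RNA was not tested. Its log2 fold change was 0.06 with a wide interval, -0.55 to 0.68, and 0.21 without DMSO replicate 1. The other 19 genes had means between 7.62 and 11.58.

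Among the snoRNPs, particles of the box C/D class serve methylation of ribosomal RNA, and those of the box H/ACA class its conversion of uridine to pseudouridine. FBL, the methyltransferase of the box C/D particle, averaged 11.22 ± 0.14 with PD0332991 and 11.21 ± 0.15 with DMSO, at 1.01-fold with an interval of 0.878 to 1.16. RRP9, a protein specific to the U3 particle that helps to cleave the precursor, had 9.48, 9.22, 9.55, 9.80 and 9.68 with PD0332991 (replicates 1 to 5), against 9.59, 9.35, 9.36, 9.94 and 10.11 with DMSO. Both treatments were higher in replicates 4 and 5, and they overlapped; the log2 fold change was -0.13 ± 0.11 (SE, limma adjusted p = 1.00). GAR1, a core protein of the box H/ACA particle, had the largest difference of the 20 genes. It stood at 7.62, 7.91, 7.41, 7.86 and 8.02 with PD0332991, against 6.57, 7.86, 7.68, 7.42 and 7.81 with DMSO. DMSO replicate 1 was far below the other 9 arrays, which shared 1 range in both treatments. The log2 fold change was 0.30 ± 0.23 (limma adjusted p = 1.00), 1.23-fold with an interval of 0.864 to 1.75, and it was 0.08 without DMSO replicate 1.

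Of the small subunit factors, UTP20, a very large component of the particle that processes the precursor, had 8.36, 8.38, 8.68, 8.09 and 8.47 with PD0332991, against 7.96, 8.48, 8.59, 8.27 and 8.02 with DMSO. The treatments overlapped, at 0.13 ± 0.14 on the log2 scale (limma adjusted p = 1.00) and 0.03 without DMSO replicate 1. RRP12, known in yeast for the export of pre-ribosomal subunits from the nucleus, ranged from 9.42 to 9.87 with PD0332991 and from 8.95 to 9.80 with DMSO, where the lowest value was again DMSO replicate 1; its log2 fold change was 0.10, and -0.03 without that array.

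Large subunit assembly was represented by 7 genes, with log2 fold changes between -0.08 and 0.15. PES1 and WDR12 encode partners of BOP1 in a complex that matures the large subunit. PES1 averaged 10.35 ± 0.10 with PD0332991 and 10.38 ± 0.16 with DMSO, at -0.04 on the log2 scale and -0.10 without DMSO replicate 1. WDR12 averaged 9.74 ± 0.19 with PD0332991 and 9.63 ± 0.46 with DMSO, and the wider spread with DMSO came with DMSO replicate 1 at 8.82, against 9.74 to 9.95 on the other 4 DMSO arrays. Its log2 fold change was 0.11, and -0.07 without that array. NOP2, a methyltransferase of large subunit ribosomal RNA, had 10.35, 10.13, 10.24, 10.42 and 10.29 with PD0332991, against 9.63, 10.21, 10.37, 10.28 and 10.35 with DMSO. Apart from that first DMSO array the treatments covered overlapping ranges, and the log2 fold change of 0.12 ± 0.14 (limma adjusted p = 1.00) became -0.01 without it.

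NIP7, a factor of precursor processing, had 11.15, 10.98, 10.91, 11.63 and 11.45 with PD0332991, against 10.40, 11.01, 11.12, 11.43 and 11.44 with DMSO. Replicates 4 and 5 were the highest in both treatments; the log2 fold change was 0.15 ± 0.14 (limma adjusted p = 1.00) and 0.02 without DMSO replicate 1. GRWD1, a WD-repeat protein of large subunit assembly, had 9.20, 9.12, 9.05, 9.76 and 9.64 with PD0332991, against 9.23, 9.27, 9.26, 9.66 and 9.73 with DMSO. In set 1 alone all 3 PD0332991 arrays were below all 3 DMSO arrays (-0.13), while in set 2 the treatments overlapped (0.00), and the joint fit gave -0.08 ± 0.08 (limma adjusted p = 1.00). NOP16 and RRS1, known in yeast as large subunit assembly factors, were at 1.04-fold (0.903 to 1.20) and 0.971-fold (0.832 to 1.13).

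The RNA polymerase genes differed more between arrays than between treatments. POLR1A, the largest subunit of RNA polymerase I, averaged 9.43 ± 0.19 with PD0332991 and 9.37 ± 0.37 with DMSO, at 0.05 on the log2 scale and -0.10 without DMSO replicate 1. POLR1B, the second largest, had 8.56, 8.66, 8.49, 8.33 and 8.89 with PD0332991, against 7.25, 9.19, 8.53, 8.60 and 8.45 with DMSO. The DMSO arrays held both the lowest and the highest value of the gene, and its interval, 0.714 to 1.80-fold, was the widest upward of the 20. POLR1C, shared by RNA polymerases I and III, averaged 9.64 ± 0.19 with PD0332991 and 9.57 ± 0.34 with DMSO, at 0.07 and, without DMSO replicate 1, -0.01. POLR3G, one of a pair of alternative RNA polymerase III subunits, averaged 7.92 ± 0.43 with PD0332991 and 8.01 ± 0.19 with DMSO, at -0.23 in set 1 and 0.12 in set 2.

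Of the growth enzymes, CAD and SRM were measured. CAD, which carries out the first steps of pyrimidine synthesis, had 10.01, 10.00, 10.08, 10.06 and 10.03 with PD0332991, against 9.83, 9.95, 9.97, 10.05 and 9.99 with DMSO. Its values spanned the least of the 20 genes, 0.24 on the log2 scale over all 10 arrays, and the PD0332991 arrays lay at the upper end of an overlapping range (0.08 ± 0.08, limma adjusted p = 1.00, 1.05-fold with an interval of 0.932 to 1.19; 0.05 on the log2 scale without DMSO replicate 1). SRM, the spermidine synthase, had 11.54, 11.40, 11.54, 11.53 and 11.55 with PD0332991, against 12.15, 11.41, 11.51, 11.56 and 11.59 with DMSO. DMSO replicate 1 was here far above the other 9 arrays. The log2 fold change was -0.13 ± 0.14 (limma adjusted p = 1.00) and 0.00 without that array.

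**Figure D2:**
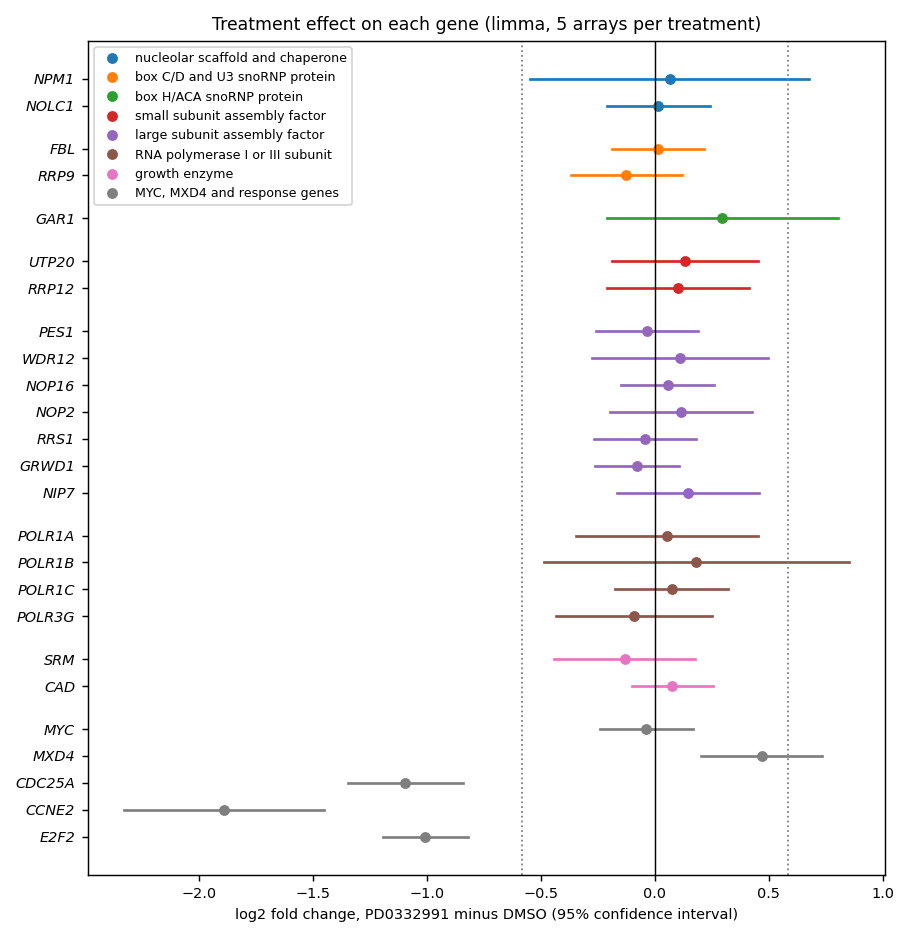
Log2 fold change of each gene, PD0332991 minus DMSO, with its 95% confidence interval from limma, coloured by role; dotted lines mark 1.5-fold in either direction. The intervals of all 20 ribosome biogenesis and growth genes and of MYC include 0, while those of MXD4, CDC25A, CCNE2 and E2F2 do not; of these last 4, MXD4 did not pass the adjusted threshold.

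MYC itself had 10.02, 9.92, 10.05, 10.07 and 10.16 with PD0332991, against 10.26, 9.99, 9.98, 10.05 and 10.12 with DMSO. The treatments overlapped, and the interval of its fold change was narrow: 0.974-fold, 0.846 to 1.12 (-0.04 ± 0.09 on the log2 scale, limma adjusted p = 1.00). The 7 measured genes with the E-box in a window had a median log2 fold change of 0.01 (from -0.13 to 0.30), and the 9 with a window but no match had 0.07 (from -0.08 to 0.18). Both ranges lie within those of the 20 genes, and no test was made of the split.

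The 20 genes leaned slightly upward when all arrays counted equally, but not when a single control array, DMSO replicate 1, was left out or weighted down. With all arrays the median log2 fold change was 0.06, against -0.02 over all probe sets, and 14 of 20 genes (70%) were above 0, against 44.8% of all probe sets. Without DMSO replicate 1 the median was -0.02, against 0.01 over all probe sets, and 8 of 20 were above 0, against 52.6% of all probe sets. DMSO replicate 1 was the lowest of all 10 arrays in 12 of 20 genes, against 21.7% of all probe sets, and the highest in 1 of 20 (SRM), against 31.6% of all probe sets. Its log2 values also had the narrowest interquartile range, 3.18 against 3.32 to 3.68 on the other 9 arrays, and limma's array weights gave it 0.147 against 0.504 to 2.07. With those weights and all 10 arrays the median was 0.00 and 10 of 20 genes were above 0, against 53.6% of all probe sets; the part of these features in the result was not tested. Without it 19 of 20 intervals lay within 1.5-fold, against 81.2% of all probe sets. limma then called 0 of 20 genes, against 0.105% of all probe sets, and 0 of 20 had an unadjusted p under 0.05, against 5.86% of all probe sets.

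**Figure D3:**
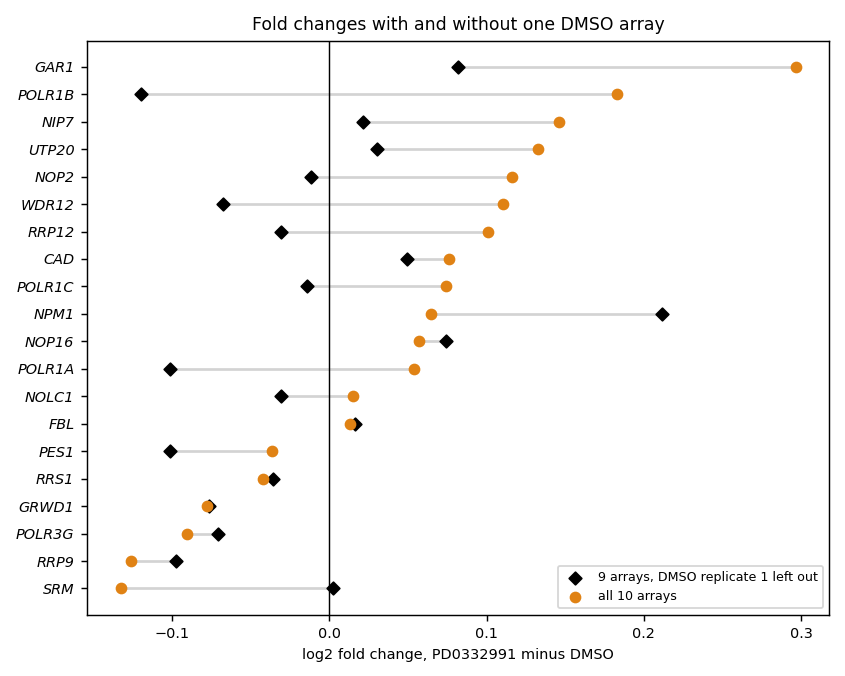
Log2 fold change of the 20 genes, PD0332991 minus DMSO, from all 10 arrays (circles) and from 9 arrays without DMSO replicate 1 (diamonds), ordered by the first. POLR1B moves to -0.12 without that array, against 0.18 with it, and GAR1 moves to 0.08, against 0.30.

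Across arrays the pairwise correlations of the genes had both signs. After treatment and array set were fitted, the median Pearson correlation over the 190 pairs of genes was 0.10 with all 10 arrays, with 60 pairs above 0.5 and 21 below -0.5. Without DMSO replicate 1 the median was 0.05, with 35 pairs above 0.5 and 32 below -0.5. The points of each pair share the same arrays and their normalization, so these values are descriptive. The same values over pairs of other genes were not computed.

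The array sets differed more than the treatments in some of these genes, a comparison added after the data were seen. In limma's fit with treatment as a covariate, 1 of 20 genes, GRWD1, was called between the sets, against 2.57% of all probe sets called higher in set 2 and 0.965% called lower. GRWD1 averaged 9.70 ± 0.06 in set 2 (n = 4) and 9.19 ± 0.09 in set 1 (n = 6), a difference of 0.51 ± 0.08 on the log2 scale (SE, limma adjusted p = 0.0151). Without PD0332991 replicate 4, DMSO replicate 4 or DMSO replicate 5, arrays of the smaller set, 0 genes were called. NIP7 at 0.56 ± 0.14, RRP9 at 0.46 ± 0.11 and POLR1C at 0.42 ± 0.11 had adjusted p = 0.0623, 0.0548 and 0.0765 by limma, and without DMSO replicate 1 these 3 were called together with GRWD1 (adjusted p = 0.0186, 0.0320, 0.0290 and 0.00791). Calls over the whole array also increased without it, to 5.4% of all probe sets called higher in set 2 and 2.81% called lower. In all, 16 of 20 genes were higher in set 2. The share of all probe sets higher in set 2 was not computed, so this count is not read as particular to these genes. Calls over the whole array also lay more often higher than lower in set 2. For a treatment effect that differs by set, limma's interaction term called 0 of 20 genes and also 0 of all probe sets. An unadjusted p under 0.05 for this term was found in 0 of 20, against 2.56% of all probe sets. The fold changes of the sets had the same sign in 14 of 20 genes.

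**Figure D4:**
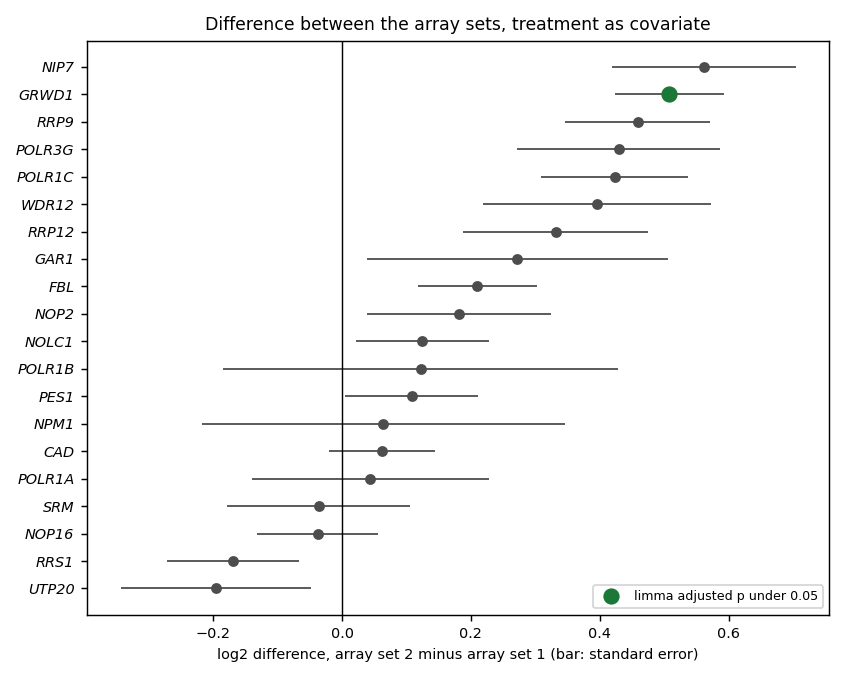
Difference of each gene between the array sets, set 2 minus set 1 on the log2 scale with its standard error, from a fit with treatment as covariate; green marks a limma adjusted p under 0.05. GRWD1 is called at 0.51, and 16 of the 20 genes lie above 0, a count for which no share over all probe sets was computed.

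The rest of the pathway was read from 9 further lists with 279 genes, of which 191 were measured. limma called 1 of the 191 (CDC25A, lower), against 0.05% of all probe sets. An unadjusted p under 0.05 was found in 8 of the 191, against 4.17% of all probe sets. The call of CDC25A was lost when PD0332991 replicate 1, 4 or 5 or DMSO replicate 4 or 5 was left out. Other small subunit factors had a median log2 fold change of 0.07, with 29 of 45 above 0 against 44.8% of all probe sets. MPHOSPH10, a U3 particle protein, was at 0.22 and UTP25 at 0.19 (0.11 without DMSO replicate 1). Other large subunit factors had a median of 0.05, with 21 of 33 above 0 beside the same 44.8%. The nucleolar gene RRP1B was at -0.22 and RPF2, a partner of RRS1, at 0.24. Like the 20 genes, these lists had medians near or below 0 without DMSO replicate 1, 0.00 for the small and -0.04 for the large subunit. Neither list had a member called or with an unadjusted p under 0.05 by limma.

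RNA polymerase I machinery had a median of 0.01 in 7 measured genes, with UBTF, its architectural activator, at -0.14 and the subunit gene POLR1F at 0.11 (0.0070 without DMSO replicate 1, with 0.22 in set 1 and -0.06 in set 2). RNA polymerase III machinery had a median of -0.02 in 15 genes, with the subunit gene POLR3E at -0.22 (limma adjusted p = 1.00) and BRF1, part of its initiation factor, at -0.14. Factors of snoRNP assembly had a median of -0.02 in 10 genes, with ZNHIT6 at 0.41 (95% interval -0.16 to 0.97; 0.19 without DMSO replicate 1) and ZNHIT3 at -0.14. Ribosomal protein genes, 26 of 79 measured, had a median of -0.04, with RPL22 at 0.36 (limma adjusted p = 1.00) and RPS23 at 0.19. Without DMSO replicate 1 these were 0.23 and 0.096. Enzymes of polyamine and nucleotide synthesis had a median of 0.00 in 19 genes, with the CTP synthase gene CTPS1 at -0.18 and IMPDH2, of guanine nucleotide synthesis, at 0.21 (0.097 without DMSO replicate 1). Without that array the list medians were -0.068 for RNA polymerase I, -0.046 for RNA polymerase III and -0.053 for snoRNP assembly. They were 0.037 for the ribosomal protein genes and -0.017 for these enzymes.

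In the MYC family, MXD4, a MAX partner that opposes MYC, stood apart without passing the threshold. It ranged from 7.83 to 8.11 with PD0332991, against 7.13 to 7.72 with DMSO. Every PD0332991 array was above every DMSO array, and the fold was 1.38 (1.15 to 1.66, limma adjusted p = 0.592). Treatments without overlap inside either array set were also found in 2.26% of all probe sets. Among the genes named here, CCNE2, E2F2, POLR3E and CDC25A (lower with PD0332991) and CCND2 (higher) shared this trait. MLXIP, the glucose-responsive partner of MLX, was at -0.27 (-0.12 without DMSO replicate 1). The 11 measured genes of the family had a median of -0.04 (0.0085 without DMSO replicate 1) with 0 called. Among 25 other MYC-linked genes the median was 0.00 (0.0064 without DMSO replicate 1), with 14 above 0 and 11 below, against 44.8% of all probe sets above 0. CDC25A, a phosphatase that removes inhibitory phosphates from cyclin-dependent kinases, was 0.468-fold (0.394 to 0.557, limma adjusted p = 0.00911), at 7.83 ± 0.32 with PD0332991 and 8.92 ± 0.12 with DMSO. CCND2, a D-type cyclin, was 1.51-fold (1.26 to 1.81, limma adjusted p = 0.265), and MCM5, TFAP4 and SLC19A1, named after their values were seen, were at -0.35, -0.31 and -0.18 (limma adjusted p = 0.782, 0.686 and 1.00).

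**Figure D5:**
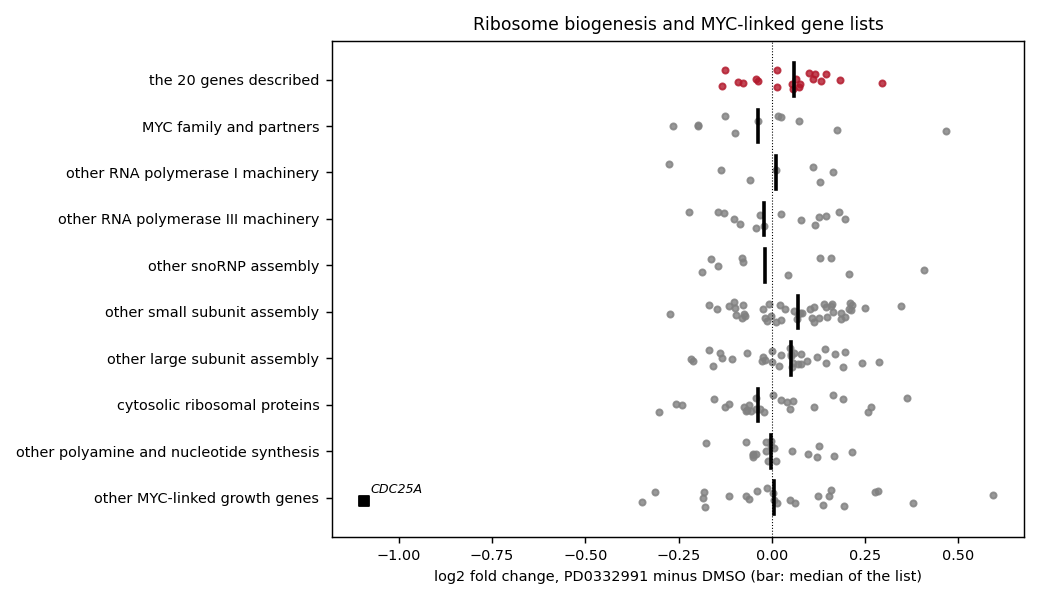
Log2 fold changes, PD0332991 minus DMSO, of the 20 genes (red) and of the genes of 9 further lists (grey), with a bar at each median and a square for a limma adjusted p under 0.05. The medians lie between -0.04 and 0.07, and CDC25A is the 1 gene called.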

How the data were processed

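Total RNA of 10 U2OS cultures was hybridised as biotin-labelled cDNA, per the labels. The authors deposited log2 values for 21980 gene-level probe sets, and list Partek, RMA and hg18 in the submitters' processing notes; versions and parameters are not given in the sources used here. These values were used as deposited.

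Probe sets were named through the platform annotation, with Entrez identifiers checked against RefSeq GRCh38.p14 (0 symbols changed), and the probe set with the highest mean stood for a gene; the annotation gives several symbols for 2408 probe sets. The 2-sided test of treatment used limma (version 3.58.1, R 4.3.3) with array set as covariate, Benjamini-Hochberg adjustment over all probe sets and a threshold of 0.05. The fit was tested on simulated data. The genes named are the 20 members, CCNE2, E2F2, MYC, the cell type markers and the 2 genes with the smallest p of each further pathway list, to which MCM5, TFAP4 and SLC19A1 were added after their values were seen; per-array values are given for the 8 members with the smallest p, for MYC and, chosen after its values were seen, for POLR1B. Members and lists were chosen with earlier results of these data known. Alternatives covered the covariate, normalization, a filter on the dimmest 33.3%, variance moderation, array weights, the probe set of a gene and the arrays used. RefSeq promoter windows were searched for CACGTG; protein features were not analysed here. Figures used Matplotlib 3.10.9.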

Additional observations from a re-analysis of the deposited data

Results flagged for a closer look

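Among the 20 genes, single arrays stood apart from the other 4 of their treatment (gap over range above 0.71, Dixon's test at 95%, which flags about 5% of groups by chance) in 2 genes with PD0332991 and 5 genes with DMSO, against 4.99% and 9.48% of all probe sets. With PD0332991, NOP16 was at 9.79 on replicate 3, against 9.50 to 9.57 on the others, and SRM was at 11.40 on replicate 2, against 11.53 to 11.55. In DMSO all 5 flags fell on replicate 1. There RRP12 was at 8.95, against 9.57 to 9.80 on the other 4 arrays. PES1 was at 10.10, against 10.40 to 10.48, WDR12 at 8.82, against 9.74 to 9.95, and NOP2 at 9.63, against 10.21 to 10.37. SRM lay the other way, at 12.15 against 11.41 to 11.59.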

How the results depend on the processing

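Under all 11 other settings and with each of the 10 arrays left out in turn, 0 of the 20 genes were called. The share of probe sets called ran from 0% (either array set alone) to 0.287% (array weights). Of the values, 20 of 219 under other settings and 20 of 200 with 1 array left out changed sign, over 13 genes. The cause was not tested. The 219 include settings in which no sign could change, because each fold change kept its reported value. These were the fit without array set, the replicate block, the filter on dim probe sets, the intensity trend and the mean over probe sets. With 1 array left out (lowest and highest of the 10 values), NPM1 ranged from -0.11 to 0.27, NOLC1 from -0.031 to 0.069, FBL from -0.024 to 0.046, RRP12 from -0.031 to 0.17, WDR12 from -0.067 to 0.19, NOP2 from -0.012 to 0.19, RRS1 from -0.085 to 0.00033, POLR1A from -0.10 to 0.17, POLR1B from -0.12 to 0.41, POLR1C from -0.014 to 0.11, POLR3G from -0.18 to 0.030, SRM from -0.20 to 0.0022 and MYC from -0.062 to 0.016. The median of the 20 genes ranged from -0.02 (without DMSO replicate 1) to 0.09 (without DMSO replicate 3). The number above 0 ranged from 8 to 14 (42.2% to 52.6% of all probe sets). The number with an interval within 1.5-fold ranged from 16 to 19 (66.3% to 81.2%). From 0 to 4 differed between the array sets (0.4% to 8.21%), and from 0 to 1 had treatments without overlap (2.9% to 4.66%). In the further lists the number of called genes ranged from 0 to 1, against 0.0091% to 0.105% of all probe sets. Reversed values were -0.025 in FBL after quantile normalization, -0.036 in FBL and -0.014 in NOLC1 after cyclic loess, and -0.044 in NOLC1, -0.056 in POLR1A, -0.12 in POLR1B and -0.040 in WDR12 with array weights. In set 1 alone NPM1 was at -0.19, and in set 2 alone FBL was at -0.0015, NOLC1 at -0.013, POLR1C at -0.067, POLR3G at 0.12, RRS1 at 0.021 and MYC at 0.028. Without both arrays numbered 1, NIP7 was at -0.0065, NOP2 at -0.034, POLR1A at -0.11, POLR1B at -0.10, POLR1C at -0.045, RRP12 at -0.049, WDR12 at -0.064 and MYC at 0.012, and 7 of 20 genes were above 0 (50.9% of all probe sets). Genes of the 20 that differed between the array sets numbered 1 as reported (3.53% of all probe sets). They numbered 2 after cyclic loess (4.14%), 5 with array weights (13.5%), 4 with an intensity trend (5.08%) and 4 without both arrays numbered 1 (5.47%). Leaving out the dimmest 33.3% of probe sets removed NPM1. Of the genes kept, 4 then differed (RRP9, GRWD1, NIP7 and POLR1C), against 8.68% of the probe sets kept. With fewer arrays the treatments did not overlap in 2 genes in set 1 alone (7.42% of all probe sets), 6 in set 2 alone (34.8%) and 1, PES1, without both arrays numbered 1 (6.66%), and 9 intervals lay within 1.5-fold in set 1 alone (37.9%). In the further lists array weights called 2 genes (CDC25A and CCND2), against 0.287% of all probe sets. Either set alone called 0, against 0% of all probe sets. The replicate number also served as the block, with array set dropped. The further lists then had 0 called genes and the 20 genes had 0, against 0.0091% of all probe sets. Same-numbered arrays correlated at 0.04 to 0.54 in their deviations from the group means, not every pair above 0.1. The numbers were therefore not taken to pair the cultures. With 5 arrays a treatment and a median standard error of 0.14 on the log2 scale, small changes were not detectable. On the dim probe set of NPM1 larger ones were not either.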
